A study of Mus musculus with 15 samples.

Results

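GL261 cells labelled Hoechst-CD133+ that had been kept with PBS and a cytokine cocktail were compared with untreated GL261 cells labelled non-SP. GL261 is a mouse glioma cell line, and the comparison uses 6 of the 15 RNA-seq libraries of the series, 3 in each of 2 of its 5 groups. The libraries were chosen by these labels alone, and all 34259 genes of the deposited count table entered, of which 17497 passed a filter on low counts and were tested. The side population is made up of the cells that export the dye Hoechst, non-SP cells lie outside it, and CD133 is the surface protein encoded by Prom1. The labels give both groups the genotype WT, Day 6 and growth in DMEM with 10% fetal bovine serum and antibiotics. The PBS cells spent 6 days with PBS and the cytokines, the non-SP cells had standard culture for the same 6 days, and every group was given new medium on days 2 and 4. The design text calls the non-SP cells Luci+ and does not use that name for the Hoechst-CD133+ cells. The cytokines are not named in the labels used here.

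The cell population and the cytokines differ together between these groups and cannot be told apart. The model is a single cell line in culture, with no tumour and no host cells. Nothing in the labels says that the 3 libraries of a group came from separate cultures. The p-values of the gene tests rest on the spread within groups, estimated jointly over all 15 libraries of the series, and this spread may be technical. In bulk RNA, fewer cells of a type and less RNA per cell cannot be told apart.

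As background, cytokines act through surface receptors that switch on STAT, ERK and NF-kB signalling, and these in turn set the level of immediate early factors, chemokines and feedback inhibitors. Side population cells are studied in glioma because drug efflux and slow cycling have been tied to stem-like growth. When a cell leaves the cycle, the DREAM and E2F repressor complexes keep replication and mitosis genes low through short promoter elements. Interferon-regulated factors, the sterol-sensing SREBP factors and the TFEB family use promoter elements of their own for antiviral, cholesterol and lysosomal genes.

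A few promoter stretches are shown because each gene passed the test, belongs to a list described below and carries the element that textbooks assign to that list. They were read from RefSeq promoters of build GRCm38.p6, run 5′ to 3′ on the gene's strand, end at the last base before the gene's start or 35 bases past the match, and carry the match in capitals. Capitals mark the match nearest the start, and further matches in the Gbp3, Ctsd and Lamp1 stretches are not marked. The genes were chosen after their values were seen.
Cdc20: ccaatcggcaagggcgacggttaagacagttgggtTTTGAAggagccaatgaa
Mcm6: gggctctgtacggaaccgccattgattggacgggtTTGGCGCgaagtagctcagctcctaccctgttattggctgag
Hmgcs1: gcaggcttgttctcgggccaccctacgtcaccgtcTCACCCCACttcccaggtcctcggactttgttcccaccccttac
Gbp3: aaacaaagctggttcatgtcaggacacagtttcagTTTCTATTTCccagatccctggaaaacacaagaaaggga
Ctsd: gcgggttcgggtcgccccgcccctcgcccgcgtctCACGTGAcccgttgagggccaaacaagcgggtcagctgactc
Lamp1: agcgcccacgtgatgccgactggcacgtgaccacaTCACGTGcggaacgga
Cdc20 (chr4:118437344-118437396, minus strand) holds the CHR element TTTGAA, and Mcm6 (chr1:128359710-128359786, minus strand) an E2F element. Hmgcs1 (chr13:119690179-119690257, plus strand) holds a sterol response element and Gbp3 (chr3:142559970-142560043, plus strand) an interferon-stimulated response element. Ctsd (chr7:142387884-142387960, minus strand) and Lamp1 (chr8:13159110-13159160, plus strand) hold the core of the CLEAR element of TFEB targets.

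Levels below are CPM, a gene's count relative to the TMM-normalised total of its library, given for libraries 1, 2 and 3 of a group. In "from A to B" the first values are the 3 non-SP libraries and the second the 3 PBS libraries. Rose and fell mean an adjusted p under 0.05 by edgeR's quasi-likelihood test with Benjamini-Hochberg adjustment over all tested genes, and differences are log2, PBS minus non-SP, with their SE.

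The 6 libraries were of like depth, with total counts of 39.3 to 41.8 M (M, mega) in non-SP and 38.5 to 42.7 M in PBS. A gene count above 0 was found for 21697 to 21967 genes per non-SP library and 23265 to 23750 genes per PBS library. The groups separated on principal component 1 of the 6 libraries, with 58.5% of their variance. The PBS libraries varied more: over 8749 genes with at least 10 CPM the median SD of log2 CPM was 0.079 in PBS and 0.043 in non-SP, and the SD was larger in PBS for 74.2% of genes. The test uses a spread shared by all groups, so it may understate the error in PBS. Of the 8749 genes, PBS 1 lay farthest from the PBS mean in 3816, PBS 3 in 3404 and PBS 2 in 1529. PBS library 3 stood apart in single genes, with Lars2 at 413 CPM against 89.6 and 109 CPM in the other PBS libraries and Rpl17 at 256 against 407 and 394 CPM, both named after their values were seen. Prom1, the CD133 gene, had 0, 0 and 2 counts in the non-SP libraries and 6, 6 and 7 counts in the PBS libraries, below the filter, so the label could hardly be checked at this depth.

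Over all tested genes, 53.7% passed the test, 27.6% (4824 genes) higher and 26.1% (4564 genes) lower in PBS. The share changed at least 2-fold was 9.33% (1632 genes) higher and 3.18% (557 genes) lower. Most of the changes were small: 5049 of the called genes (53.8%) differed by under 1.5-fold, and the median difference over all genes was 0.02. Of genes under 1 CPM on average 23.1% were called, against 77.4% of genes at 100 CPM or more. The 3 libraries of one group lay wholly above or below those of the other for 61.2% of genes. Counts per gene group below are read against these shares. A gene may belong to several lists, so the counts of different lists are not independent.

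**Figure D1:**
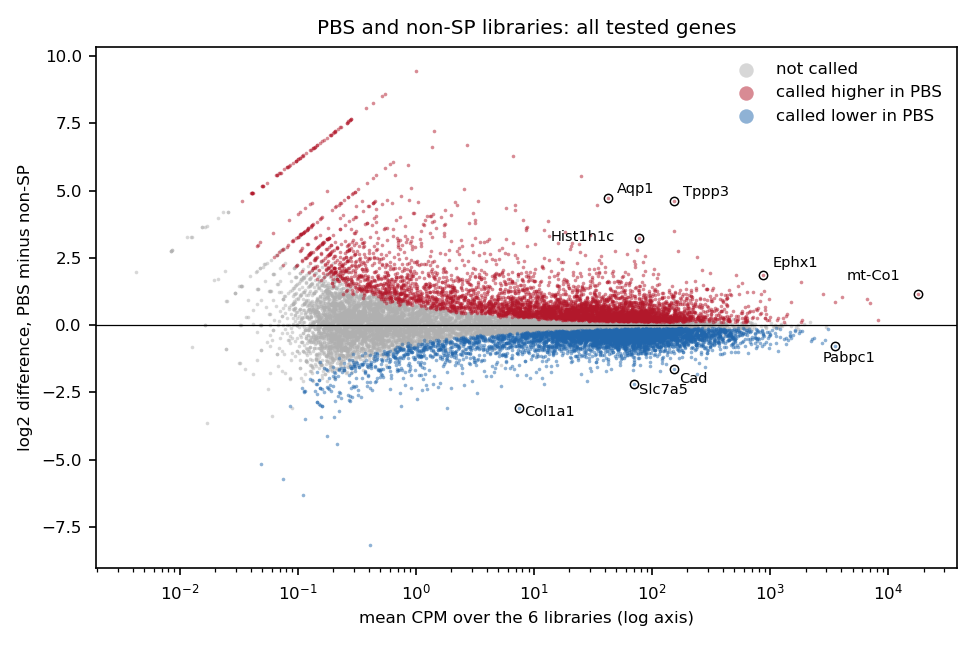
Log2 difference (PBS minus non-SP) of each tested gene against its mean CPM over the 6 libraries on a log axis, with called genes in red (higher) and blue (lower) and a few genes ringed. The cloud centres on 0 (median 0.02) and its upper tail is wider than its lower tail.

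When gene models without a proper name, genes that averaged under 5 CPM in both groups and genes whose groups overlapped are set aside, Serpinb12 and Tmprss11b had the largest rises in fold. Tmprss11b, a membrane serine protease of squamous epithelium, rose from 0.0958, 0.0512 and 0.339 CPM to 14.7, 13.5 and 11 CPM (6.3 ± 0.35, adjusted p = 1.52e-12). Serpinb12, a serpin of epithelia, rose from 0.0958, 0.0512 and 0 CPM to 5.24, 5.28 and 5.59 CPM, and Frmpd4, a synaptic scaffold gene, from 0.335, 0.358 and 0.266 CPM to 5.81, 6.58 and 5.11 CPM. These genes were close to silent in non-SP, so their fold sizes rest on few counts there: without non-SP 3 the difference of Tmprss11b was 7.4, and without non-SP 1 that of Serpinb12 was 7.59 in place of 6.69. Emp1, a tetraspan membrane protein, was among the largest rises in CPM, from 520, 520 and 522 CPM to 1288, 1270 and 1198 CPM (1.27 ± 0.05). Ephx1, the microsomal epoxide hydrolase, rose from 377, 377 and 376 CPM to 1419, 1352 and 1356 CPM (1.87 ± 0.04, adjusted p = 1.16e-18). No library of either gene came near the other group.

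By the same limits the largest falls were smaller in fold. Col1a1, the main chain of collagen I, fell from 12.7, 12.5 and 14.9 CPM to 0.571, 0.93 and 3.24 CPM (-3.08 ± 0.37, and -4.14 without PBS 3, the highest of its group). Syt13, an atypical synaptotagmin, fell from 5.92, 5.17 and 5.67 CPM to 0.934, 0.813 and 1.16 CPM (-2.52 ± 0.24). Gli1, a Hedgehog target and effector, fell from 18.2, 21.2 and 16.8 CPM to 4.33, 4.23 and 5.9 CPM (-1.96 ± 0.14). Nup210, a nuclear pore membrane protein, fell from 15, 15.1 and 14.5 CPM to 2.93, 4.21 and 4.38 CPM. Map3k14, the NIK kinase of the alternative NF-kB route, fell from 40.2, 38.8 and 38.9 CPM to 8.07, 12.5 and 13 CPM (-1.81 ± 0.12). Tcof1, the nucleolar protein treacle, fell from 385, 369 and 380 CPM to 92.8, 115 and 113 CPM (-1.82 ± 0.08).

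Most genes of DNA synthesis and mitosis were lower. Of 36 tested replication genes 30 fell and none rose (median -0.45), and among 35 genes of G2 and mitosis 33 fell, with no riser (median -0.59), beside 26.1% lower over all genes. The uncalled mitosis genes were Nusap1, a spindle protein (0.16, adjusted p = 0.0557), and Pttg1, the separase inhibitor securin (-0.07), both named after their values were seen. Without PBS library 3 Nusap1 rose by 0.24 (adjusted p = 0.0059) and was the 1 riser. It was also called higher in several other settings, among them upper-quartile scaling (0.21, adjusted p = 0.0128) and a fit of only the 6 libraries (0.17, adjusted p = 0.0355). Espl1, the separase that splits sister chromatids, fell from 106, 95.2 and 99.7 CPM to 35.6, 44.2 and 43 CPM (-1.29). Foxm1, the transcription factor of mitotic genes, fell from 204, 193 and 203 CPM to 73.5, 89.9 and 95 CPM (-1.21). Mki67, the Ki-67 proliferation antigen, fell from 615, 649 and 652 CPM to 359, 353 and 375 CPM (-0.82). In each of these genes the lowest non-SP library lay well above the highest PBS library.

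Within replication the genes did not move alike. Pold1, the catalytic subunit of polymerase delta, fell from 116, 119 and 123 CPM to 54.6, 58 and 57.7 CPM (-1.07), and the clamp loader subunit Rfc5 from 126, 127 and 125 CPM to 58.9, 61.5 and 64.7 CPM (-1.03). Chaf1a, the chromatin assembly factor that follows the fork, fell from 160, 146 and 157 CPM to 73.7, 83.2 and 83.1 CPM. Among the 6 uncalled members, named after their values were seen, were Pcna, the sliding clamp, at 247, 246 and 249 against 249, 238 and 210 CPM (-0.09, adjusted p = 0.233) and Mcm7 (-0.1, adjusted p = 0.138). Cdc20, whose promoter is printed above, fell from 249, 241 and 248 CPM to 119, 122 and 125 CPM (-1.01), and Mcm6 from 450, 432 and 444 CPM to 277, 290 and 290 CPM (-0.63).

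The promoter letters were counted over whole lists, in the 250 bases before each gene's start and on both strands. TTTGAA was found in 10 of 30 promoters of the mitosis genes (33.3%; promoters for 29 of the 35 genes) against 16% of all 32851 promoters, and the CCAAT box, spelled CCAAT, in 22 of 30 (73.3%) against 33.8%. An E2F element, TTCCCGC or TTGGCGC, was in 12 of 32 promoters of replication genes (37.5%; 28 of 36 genes) against 5.6% of all. In the Cdc20 stretch the match begins 18 bases before the start and in Mcm6 46 bases before it. These are letter matches in a window and say nothing of binding in these cells.

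Most genes that supply DNA building blocks were lower too, and 21 of 27 nucleotide synthesis genes fell and 2 rose (median -0.49). Cad, the enzyme of the first steps of pyrimidine synthesis, fell from 231, 226 and 240 CPM to 64.4, 79.6 and 79.5 CPM (-1.64 ± 0.07, adjusted p = 5.36e-14). Impdh1, which commits purines to guanine nucleotides, fell from 79.2, 77.3 and 76.3 CPM to 25.5, 29.9 and 33.6 CPM (-1.39), and Pfas, a purine synthesis enzyme, from 145, 143 and 146 CPM to 60.8, 70.6 and 73.3 CPM (-1.08). The fall of Cad left every PBS library under every non-SP library by a wide gap.

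The control of G1 moved in both directions. Of 26 G1 regulators 16 fell and 5 rose (median -0.25). E2f7, an atypical repressor E2F, fell from 65.1, 57.4 and 63.1 CPM to 18.3, 23.1 and 26.1 CPM (-1.46), and its relative E2f8 from 105, 96.8 and 101 CPM to 34.4, 37.8 and 44.1 CPM (-1.38). Ccnd1, the cyclin that drives G1, rose from 477, 474 and 493 CPM to 632, 656 and 668 CPM (0.44). Targets of the tumour suppressor p53 rose in 26 of 31 and fell in none (median 0.76). Btg2, an antiproliferative p53 target, rose from 25.7, 27.6 and 26 CPM to 102, 96.8 and 98.3 CPM (1.91), and Perp, a membrane p53 target, from 119, 127 and 121 CPM to 326, 315 and 278 CPM (1.32). Gdf15, a secreted stress cytokine, rose from 21.3, 21.5 and 21.3 CPM to 60.9, 66.2 and 66.4 CPM (1.59). Of 28 senescence-associated secreted factors 19 rose and 4 fell, with a median of 1.55; the largest fall in CPM was of Igfbp4, a carrier of insulin-like growth factors, from 1543, 1522 and 1565 CPM to 709, 813 and 841 CPM (-0.97).

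Most tested histone cluster genes were higher. The deposited counts hold 65 genes of the histone clusters, of which 38 were tested, 35 rose, none fell, and 34 rose at least 2-fold (median 3.24). This group was formed after the values were seen. The main filter asked for enough counts in 3 libraries of the series. Members low in non-SP could thus pass it through PBS or another group, so the share of risers is partly set by the filter. Their summed level was 39.3 to 41.2 CPM per non-SP library and 266 to 294 CPM per PBS library. Many members are low: with a filter of 1 CPM in 3 libraries 17 rose, and with all libraries thinned to the shallowest of the series 23 rose. Those settings tested fewer genes in all, 13509 and 15173 in place of 17497. Members may thus be missing there because they were not tested. Hist1h1c, a linker histone, rose from 14.9, 13.3 and 16.5 CPM to 139, 147 and 132 CPM (3.23 ± 0.11), and Hist1h1d, another linker histone, from 0.767, 0.41 and 0.63 CPM to 14.6, 13.8 and 11.3 CPM (4.45 ± 0.21). Hist1h2be, a core histone, rose from 0.982, 1.15 and 0.944 CPM to 18.4, 15.4 and 12 CPM. H1f0, a linker histone gene outside the clusters, fell from 288, 277 and 283 CPM to 186, 188 and 176 CPM (-0.63), and Hist1h1c and H1f0 were named after their values were seen. Cluster genes are near copies of each other, so reads could be split between them, and the assignment to single genes is uncertain. As background, the messages of cluster histones in cycling cells end in a stem-loop in place of a poly(A) tail; how the libraries captured RNA is not given in the sources used here.

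**Figure D2:**
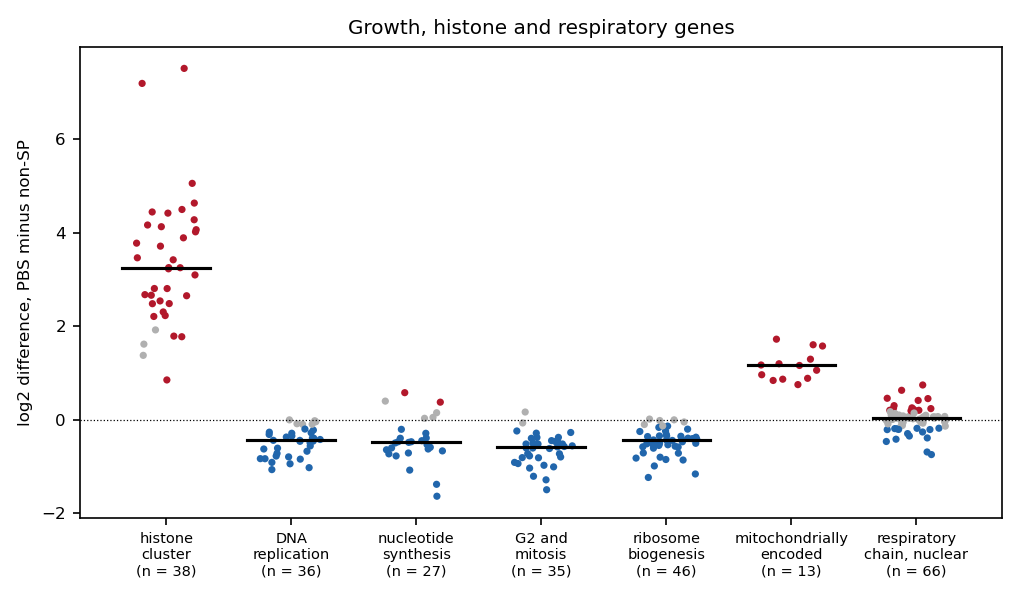
Log2 difference of each tested gene in the histone clusters and in the growth and respiratory lists named under the axis, with the list's median as a black bar and called genes in red (higher) or blue (lower). Histone cluster genes lie above 0 (median 3.24), replication, nucleotide, mitosis and ribosome biogenesis genes mostly below it.

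Of 46 ribosome biogenesis genes 40 fell and none rose (median -0.44). Polr1b, a core subunit of RNA polymerase I, fell from 70.2, 66.3 and 71.5 CPM to 25.8, 31.2 and 31 CPM (-1.24), and Mybbp1a, a nucleolar regulator, from 668, 665 and 689 CPM to 315, 332 and 368 CPM (-0.99). Ncl, the main nucleolar protein, fell from 2592, 2722 and 2727 CPM to 1782, 1738 and 1828 CPM (-0.59). Ribosomal proteins themselves moved less, with 36 of 77 lower, 2 higher (Rpl23 and Rps28, named after their values were seen) and a median of -0.14. Without any one of non-SP 2, non-SP 3, PBS 1 or PBS 2 only 1 of the 77 was higher, and Rps28 was also lost without non-SP 1 (adjusted p = 0.13). The translation factors Eif4g1, a scaffold of cap binding, and Pabpc1, the poly(A) binding protein, fell by 0.84 and by 0.76 on the log2 scale, Pabpc1 from 4424, 4414 and 4441 CPM to 2399, 2677 and 2766 CPM.

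Chromatin regulators were lower in 39 of 64 and higher in 11 (median -0.31). Dnmt1, the maintenance DNA methyltransferase, fell from 629, 619 and 628 CPM to 284, 319 and 345 CPM (-0.98). Lmnb1, the nuclear lamina protein lamin B1, fell from 422, 408 and 417 CPM to 126, 145 and 158 CPM (-1.54), with no overlap between the groups.

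**Figure D3:**
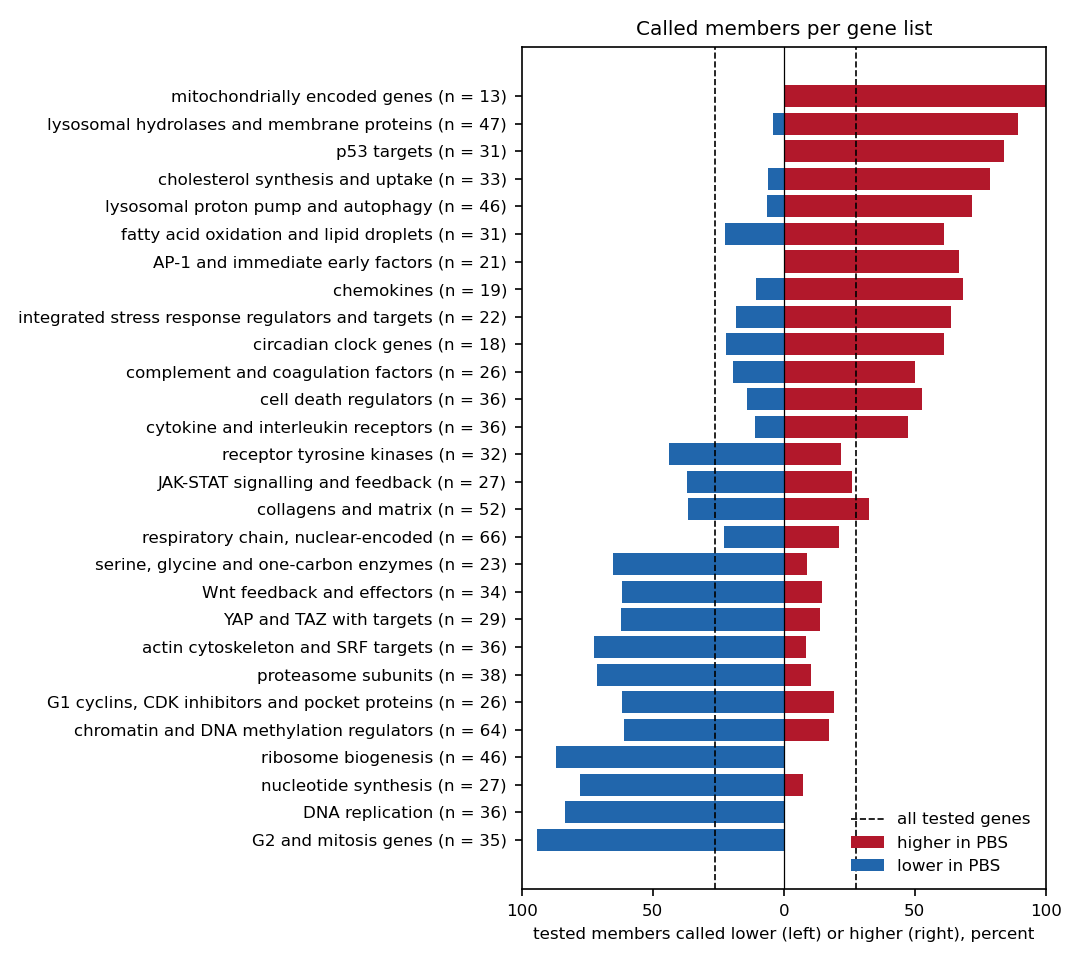
Percent of tested members called lower (blue, left) and higher (red, right) in PBS for selected gene lists, each with its number of tested members; dashed lines mark the shares over all tested genes (26.1% lower, 27.6% higher). Mitosis, ribosome biogenesis and replication lists reach far past the left line, mitochondrially encoded, lysosomal and p53 lists far past the right line.

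On the receiving side of the cytokines, 17 of 36 tested receptors rose and 4 fell (median 0.36), beside 27.6% and 26.1% over all genes. Csf1r, the receptor of macrophage colony-stimulating factor, rose from 1.75, 2.41 and 3.22 CPM to 23.9, 23.1 and 26.8 CPM (3.32 ± 0.16, adjusted p = 1.5e-13). Csf1r is itself a marker of macrophages and microglia. With it included, 7 of 10 tested markers rose and none fell, and the markers' summed level was 21.8 to 23 CPM per non-SP library and 92.5 to 104 CPM per PBS library. Tyrobp, a defining marker of those cells, had no count in any of the 6 libraries, and Aif1 had 2 to 4 counts per library. Other genes tied to such cells differed in both directions. Spi1 had 0, 2 and 8 counts in non-SP and 6, 16 and 4 counts in PBS. Tmem119 went the other way, with 2, 4 and 10 counts in non-SP and 2 in each PBS library. Cd68 averaged 5.15 FPKM in non-SP and 33.9 FPKM in PBS, and Cybb, given below, had counts in PBS only. Spi1, Tmem119 and Cd68 were named after their values were seen. The part of such cells in the result was not tested beyond these values. Fas, the death receptor, rose from 4.29, 4.2 and 3.39 CPM to 16.4, 16.7 and 16.7 CPM (2.07), and Il1r1, the interleukin-1 receptor, from 2.61, 3.97 and 3.12 CPM to 8.71, 7.27 and 8.5 CPM (1.34). Il13ra1, a receptor chain of interleukin-4 and interleukin-13, fell from 35.4, 36.2 and 36.1 CPM to 19.6, 18 and 19.5 CPM (-0.91). The receptors of the interleukin-6 family changed little: Il6st rose from 90.5, 93.7 and 92.1 CPM to 110, 112 and 130 CPM (0.35) and Lifr from 420, 407 and 424 CPM to 467, 489 and 512 CPM (0.23).

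Downstream of the receptors the JAK-STAT list split, with 7 higher and 10 lower of 27 and a median of -0.04 that became 0.02 with upper-quartile scaling. With all libraries thinned, 5 members were lower in place of 10. Bcl6, a STAT-responsive repressor, rose from 5.2, 4.63 and 6.68 CPM to 25.5, 30.5 and 28.5 CPM (2.35), while Pim3, a serine kinase induced by STATs, fell from 52.1, 49.3 and 51.6 CPM to 22.6, 23.4 and 25.6 CPM (-1.1). Socs3, the feedback inhibitor of interleukin-6 signalling, was at 17.5, 17.8 and 17.5 CPM in non-SP and 16.2, 18.1 and 14.8 CPM in PBS, overlapping between groups (-0.1 ± 0.1, adjusted p = 0.406). Stat3 differed by -0.16 (adjusted p = 0.0467), a call lost without any one of non-SP 1, non-SP 2, non-SP 3 or PBS 1, with DESeq2 and with upper-quartile scaling.

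Receptor tyrosine kinases fell more often than they rose, 14 against 7 of 32 (median -0.16). With limma on filtered log2 FPKM, where fewer genes were tested in all, 9 were lower. Egfr, the epidermal growth factor receptor, was an exception and rose from 28.1, 26.1 and 27.1 CPM to 87.3, 85.2 and 74.1 CPM (1.6 ± 0.08, adjusted p = 1.84e-13). Erbb2, its partner receptor, fell from 31.8, 28.2 and 31.4 CPM to 17.1, 21.4 and 20.5 CPM (-0.63), and the Wnt5a receptor Ror1 from 11, 11.4 and 10.4 CPM to 3.45, 2.93 and 5.52 CPM (-1.47).

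Ligands were more often higher, 24 of 55 against 6 lower (median 0.25), and without PBS library 1 the number lower was 3. Among ligands of Egfr, Areg (amphiregulin) rose from 1.8, 1.59 and 1.55 CPM to 7.57, 9.37 and 7.01 CPM (2.28), and Btc (betacellulin) from 2.06, 2.53 and 2.57 CPM to 12.5, 13.4 and 10.7 CPM (2.35). Spp1, the matrix cytokine osteopontin, rose from 337, 342 and 329 CPM to 804, 767 and 673 CPM (1.15). Pdgfa, a platelet-derived growth factor chain, rose from 64.7, 63.2 and 67 CPM to 141, 134 and 134 CPM (1.07). Csf2, which encodes GM-CSF, rose from 2.32, 1.84 and 1.7 CPM to 7.39, 8.23 and 6.88 CPM (1.94).

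Chemokines rose in 13 of 19 and fell in 2, with a median of 1.5, and without PBS library 1 only 1 was lower. Ccl2, the chemokine that draws monocytes, rose from 30.4, 32.3 and 29.6 CPM to 92.3, 85 and 84.6 CPM (1.5 ± 0.08), and Cxcl2, which draws neutrophils, from 6.71, 7.99 and 7.7 CPM to 26.4, 22.8 and 23.7 CPM (1.7). The low Ccl7, named after its values were seen, rose from 0.288, 0.0512 and 0.17 CPM to 4.75, 3.81 and 3.9 CPM (4.57, and 5.18 without non-SP 1). Il6, also named after its values were seen, stayed low and was not called, at 0.551, 0.615 and 0.315 CPM against 0.519, 1.07 and 0.658 CPM (adjusted p = 0.175).

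Immediate early factors were higher in PBS at Day 6, with 14 of 21 higher and none lower (median 0.51). A fit of only the 6 libraries had 1 lower. Fosb, a partner of Jun proteins, rose from 1.1, 0.768 and 0.63 CPM to 5.99, 7.34 and 8.43 CPM (3.12), and Atf3, a stress-induced repressor, from 10.1, 13.6 and 13.6 CPM to 53.8, 53.4 and 50.4 CPM (2.08 ± 0.11). Feedback genes of the ERK pathway split, 7 higher and 11 lower of 23 (median -0.27). The phosphatase genes Dusp1, from 14.8, 14.5 and 15 CPM to 66.2, 64.7 and 65.9 CPM (2.15), and Dusp10, from 26.7, 24.1 and 24.8 CPM to 79.7, 78.3 and 75.2 CPM (1.62), rose. The inhibitor Spry1 fell from 29.9, 33.4 and 30.9 CPM to 13.6, 16.7 and 21.5 CPM (-0.86), and the ERK-dependent factor Etv4 from 105, 97.5 and 104 CPM to 50.8, 59.3 and 65.3 CPM (-0.8).

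Other signalling pathways moved in part. Of 34 Wnt feedback and effector genes 21 fell and 5 rose (median -0.41). Of 8 Hedgehog genes 4 fell and 2 rose. Smo, the signal transducer, fell from 125, 127 and 129 CPM to 73.9, 82.2 and 89.3 CPM (-0.64) and its receptor partner Ptch1 from 67.2, 65.2 and 67.1 CPM to 39.2, 41.9 and 47.9 CPM (-0.63) and the other fallers were Gli1, above, and Sufu, an inhibitor named after its values were seen. Disp1, which releases the ligand, rose from 8.17, 6.99 and 8.14 CPM to 13.9, 13 and 13.8 CPM (0.8), and Cdon, a co-receptor named after its values were seen, rose by 0.24. In the TGF-beta, BMP and activin list 13 of 37 rose and 11 fell, and without PBS library 3 the number higher was 8. Smad6, an inhibitor of BMP signalling, fell from 17.9, 17 and 19.5 CPM to 11.2, 10.5 and 9.79 CPM (-0.79). Tgfbr3, a co-receptor, rose from 2.95, 3.02 and 2.74 CPM to 5.29, 6.95 and 10.0 CPM (1.36), with PBS 3 the highest. The Notch list had 9 higher and 8 lower of 24, and without PBS library 1 the number lower was 5.

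Of 59 interferon response genes 34 rose and 7 fell (median 0.54). Without PBS library 1, or with all libraries thinned, 4 were lower. Gbp3, an interferon-induced GTPase whose promoter is shown above, rose from 424, 425 and 431 CPM to 1041, 968 and 980 CPM (1.22 ± 0.04), and its relative Gbp9 from 6.64, 6.89 and 6.37 CPM to 28.8, 26.6 and 28.3 CPM (2.07). Mx1, an antiviral GTPase, rose from 0.551, 0.512 and 0.557 CPM to 11.9, 11 and 10.4 CPM (4.35 ± 0.21). Samhd1, a nucleotide-cleaving restriction factor, fell from 206, 205 and 209 CPM to 95.1, 99.7 and 106 CPM (-1.04 ± 0.05). Several textbook interferon targets did not pass, among them Isg15 (0.5, adjusted p = 0.11), Ifit3 (1.95, adjusted p = 0.097, and 0.78 without PBS 1) and Irf9 (0.16, adjusted p = 0.303), named after their values were seen. The interferon-stimulated response element, searched as GAAA, any 2 bases and GAAA, was found in 20 of 56 promoters of the list (35.7%; 45 of 59 genes) against 3% of all promoters.

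Antigen presentation by MHC class I was higher in 15 of 21 genes and lower in 1 (median 0.42). Leaving out any of non-SP 2, non-SP 3 or PBS 2 left none lower. Tap1, a peptide transporter, rose from 5.85, 6.07 and 5.88 CPM to 13.6, 12.8 and 14.2 CPM (1.19), and the proteasome activator Psme1 from 43.5, 49.6 and 46 CPM to 69.9, 65.6 and 65.6 CPM (0.53). Checkpoint and NK cell ligand genes rose in 10 of 24 and fell in 4 (median 0.43). Cd80, a co-stimulatory ligand of T cells, rose from 1.68, 2.13 and 1.94 CPM to 24.9, 20.8 and 21 CPM (3.54), far apart in every library. Nectin2, a ligand of NK and T cell receptors, fell by 1.11 on the log2 scale.

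Among complement and coagulation factors the groups did not overlap for 18 of 26 tested genes, beside 61.2% of all tested genes, so this is no trait of the list. C1s1, the protease that starts the classical route, rose from 95.7, 96.4 and 97.7 CPM to 313, 282 and 287 CPM (1.61 ± 0.06). C3, the central component, rose from 53.8, 58.9 and 55.4 CPM to 99.7, 106 and 157 CPM (1.11), with PBS 3 above the other PBS libraries. The chaperone clusterin, Clu, rose from 133, 138 and 139 CPM to 300, 281 and 292 CPM (1.09). Over the list of complement and coagulation factors 13 of 26 rose and 5 fell (median 0.32), and without PBS library 1 or PBS library 2 the number lower was 3.

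Casp4, the sensor of cytosolic lipopolysaccharide, rose from 13.4, 13.4 and 12.5 CPM to 54.1, 50 and 65.7 CPM (2.11 ± 0.1), and Casp1, which cleaves interleukin-1 family members, from 40.8, 39.6 and 40.8 CPM to 87.7, 81.4 and 82.6 CPM (1.05). Their pore-forming substrate Gsdmd rose from 9.03, 10.8 and 9.9 CPM to 20.9, 19.4 and 20.3 CPM (1.03), and Il18, a Casp1 substrate, from 6.71, 6.91 and 7.02 CPM to 13.5, 13.9 and 14.6 CPM (1.03). Cell death regulators as a list had 19 higher and 5 lower of 36 (median 0.21). Named after their values were seen, Bcl2, an inhibitor of apoptosis, differed by -0.81 and Bak1, a mitochondrial pore protein, by -0.79, and both fell.

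**Figure D4:**
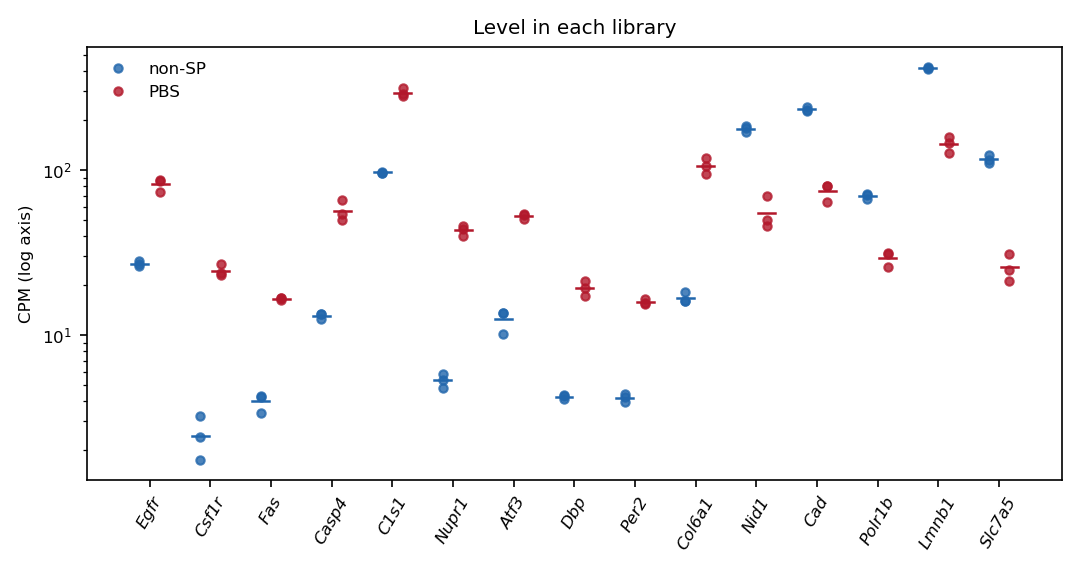
CPM on a log axis of 15 genes in each non-SP (blue) and PBS (red) library, with the group mean as a bar. For C1s1 the 3 PBS libraries lie at 282 to 313 CPM, above all non-SP libraries, and for Cad they lie below them.

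Lysosomal genes rose in 42 of 47 and fell in 2 (median 0.71), and genes of the proton pump and of autophagy in 33 of 46 with 3 lower (median 0.47). Tpp1, a lysosomal peptidase, rose from 111, 112 and 112 CPM to 376, 354 and 314 CPM (1.64), and Ctsh, cathepsin H, from 24.5, 25.8 and 23.2 CPM to 124, 115 and 120 CPM (2.29). Gpnmb, a glycoprotein of lysosomes and melanosomes, rose from 216, 229 and 223 CPM to 789, 848 and 786 CPM (1.86). Ctsd, cathepsin D, was at 103, 101 and 106 CPM and then at 455, 439 and 387 CPM (2.05), and Lamp1, a membrane protein, at 592, 593 and 590 CPM and then at 862, 857 and 818 CPM (0.52). The core CACGTGA stood in 12 of 43 promoters of the lysosomal list (27.9%; 39 of 47 genes) and in 5 of 44 of the pump and autophagy list (11.4%; 37 of 46 genes), against 3.1% of all promoters. These letters contain the E-box CACGTG. Tfeb, the factor named for this element, fell from 21.3, 20.0 and 22.3 CPM to 11.6, 11.6 and 11.8 CPM (-0.86), and its relative Mitf rose from 1.39, 1.28 and 0.896 CPM to 2.33, 2.44 and 2.63 CPM (1.05), both named after their values were seen.

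Among autophagy genes Gabarapl1, which coats autophagosomes, rose from 59.2, 58.4 and 61 CPM to 170, 162 and 184 CPM (1.53), and Atg9b, a lipid scramblase of the pathway, from 42.5, 45.6 and 42.1 CPM to 158, 166 and 160 CPM (1.9). The proteasome went the other way, with 27 of 38 subunits lower and 4 higher (median -0.2). Psmd3, a lid subunit, fell from 200, 188 and 192 CPM to 90.0, 101 and 96.8 CPM (-1.01). Catalytic subunits of the interferon-inducible proteasome, Psmb8 (1.6) and Psmb9 (2.24), were low and rose, named after their values were seen, and without non-SP 2 the difference of Psmb9 was 3.08. Endoplasmic reticulum chaperones rose in 19 of 25 with 2 lower (median 0.29), while cytosolic and mitochondrial heat shock genes rose in 7 and fell in 12 of 26 (median -0.14). The 2 lower chaperones became 1 without any of non-SP 1, non-SP 2, non-SP 3, PBS 1 or PBS 3.

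Of 22 genes of the integrated stress response 14 rose and 4 fell (median 0.5). Nupr1, a small stress-induced chromatin protein, rose from 4.77, 5.33 and 5.84 CPM to 39.8, 44.1 and 45.7 CPM (3.02 ± 0.09, adjusted p = 8.89e-17). Ddit3, the transcription factor CHOP, rose from 11.8, 11.2 and 11.4 CPM to 33.8, 31 and 29 CPM (1.45), and Ppp1r15a, which reverses the translation block, from 26.5, 23.8 and 25.9 CPM to 80.3, 92.5 and 94.2 CPM (1.81). Asparagine synthetase, Asns, a textbook target of the same pathway named after its values were seen, fell from 89.4, 92.3 and 90.4 CPM to 81.9, 75.1 and 78.4 CPM (-0.21).

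Enzymes of one-carbon metabolism and of tRNA charging were mostly lower. Of 23 serine, glycine and one-carbon enzymes 15 fell and 2 rose (median -0.48), with Shmt2, the mitochondrial serine hydroxymethyltransferase, from 236, 236 and 237 CPM to 90.4, 99 and 113 CPM (-1.23). Of 19 tRNA synthetases 11 fell and 3 rose, and Vars, the valine enzyme, fell from 298, 288 and 309 CPM to 118, 143 and 127 CPM (-1.2). Amino acid transporters rose in 14 of 24 and fell in 6 (median 0.4). Slc38a2, a glutamine carrier, rose from 1056, 1029 and 1079 CPM to 2017, 1934 and 1859 CPM (0.88). Slc7a5, the large neutral amino acid exchanger, fell from 122, 111 and 114 CPM to 21.3, 24.8 and 31 CPM (-2.17), while its heavy chain Slc3a2, named after its values were seen, rose from 157, 152 and 154 CPM to 199, 206 and 211 CPM (0.41).

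Cholesterol synthesis and uptake genes rose in 26 of 33 and fell in 2 (median 0.97). Insig1, the sterol-regulated brake on SREBP, rose from 26.5, 26 and 26.2 CPM to 83.2, 81 and 80.5 CPM (1.64), and Hmgcs1, the entry enzyme of the pathway, from 62.9, 61.2 and 63.6 CPM to 152, 137 and 166 CPM (1.28). The sterol element searched for, TCACNCCAC, was in 1 of 28 promoters of the list (3.6%; 23 of 33 genes), that of Hmgcs1, against 1.1% of all promoters. Fatty acid synthesis genes rose in 15 of 25 and fell in 5, and without PBS library 1 the number lower was 3. Oxidation and lipid droplet genes rose in 19 of 31 and fell in 7. Lpin1, a phosphatidate phosphatase, rose by 1.64, and the acetate-activating enzyme Acss2 by 1.61 on the log2 scale. Fabp5, a fatty acid carrier, fell from 44.8, 43 and 47.7 CPM to 15.2, 14.8 and 15.1 CPM (-1.59).

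In glycolysis 8 of 26 genes rose and 10 fell (median -0.2), while the kinases Pdk4 (1.83) and Pdk2 (1.92), which switch off pyruvate dehydrogenase, rose. Genes of the hypoxia response rose in 8 of 17 and fell in 2. Kdm3a, a histone demethylase induced by hypoxia, rose from 76.3, 80.2 and 83.6 CPM to 169, 163 and 164 CPM (1.05), and Vegfa, the vascular growth factor, from 26.5, 33 and 34.4 CPM to 61.7, 70.7 and 70.4 CPM (1.11). NRF2 target and pentose phosphate genes rose in 21 of 43 and fell in 11. Gsta3, a glutathione transferase, rose from 4.62, 5.35 and 4.72 CPM to 37.6, 35.6 and 32.3 CPM (2.84), and Nqo1, a quinone reductase, from 17.1, 15.3 and 18.2 CPM to 48.7, 48.9 and 44.6 CPM (1.49). Metal and iron genes rose in 17 of 28 and fell in 5. The copper oxidase Cp rose from 9.37, 12 and 9.81 CPM to 34.1, 28.3 and 44.5 CPM (1.78).

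Mitochondrially encoded messages took a larger share of the counts in PBS, 6.35%, 5.88% and 5.69% against 2.82%, 2.92% and 2.84% in non-SP. The means were 5.97% ± 0.343 and 2.86% ± 0.0552 (SD, n = 3), a difference of 3.11 percentage points (two-sided exact permutation p = 0.1, the smallest that 3 against 3 libraries can give). All 13 tested protein genes of the mitochondrial genome rose (median 1.16). mt-Co1, a subunit of cytochrome oxidase, rose from 10748, 11325 and 10988 CPM to 26931, 24583 and 22803 CPM (1.17 ± 0.06), and mt-Nd1, a subunit of complex I, from 5118, 5111 and 5032 CPM to 9634, 8935 and 8700 CPM (0.84). Nuclear genes of the respiratory chain did not follow, with 14 higher and 15 lower of 66 (median 0.02). Cyc1, cytochrome c1, fell from 96.4, 97.5 and 98.4 CPM to 56.6, 62.3 and 54.9 CPM (-0.75), and Ndufa1, a small complex I subunit, rose from 29.2, 29 and 31.6 CPM to 53.5, 50.3 and 46.1 CPM (0.74). The level of mt-Co3, at 31.5, 30.6 and 34.3 CPM and then 75.2, 139 and 77.7 CPM, is uncertain, since nuclear copies of mitochondrial sequence could take its reads. The same limit may hold for mt-Co2, mt-Atp6 and mt-Nd4l. Their mean FPKM in non-SP was 110, 45 and 11.8, beside 7097 for mt-Co1. With mitochondrial genes left out of the fit, 4705 genes were higher and 4738 lower.

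Adhesion genes moved in both directions. Integrins rose in 11 of 20 and fell in 5 (median 0.91). Itgb7, a lymphocyte homing integrin, rose from 20.6, 20.0 and 20.3 CPM to 74.4, 78.3 and 64.7 CPM (1.84), and Itga2, a collagen receptor chain, from 30.9, 31.4 and 31.5 CPM to 74.9, 72.3 and 70.0 CPM (1.21). Itga5, the fibronectin receptor chain, fell from 58.5, 60.7 and 63.8 CPM to 26.1, 29.6 and 32.5 CPM (-1.05). Its ligand Fn1 fell from 2718, 2694 and 2830 CPM to 1528, 1926 and 2470 CPM (-0.48), with the PBS libraries spread widely.

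Of 52 collagens and matrix genes 17 rose and 19 fell (median 0.1). When filtered log2 FPKM was tested with limma, with fewer genes tested in all, 10 rose. Col6a1, a chain of beaded-filament collagen VI, rose from 16.2, 16.2 and 18.2 CPM to 94.9, 105 and 118 CPM (2.65 ± 0.08), and Col6a3, another chain, from 1.39, 1.18 and 1.33 CPM to 13.3, 15.9 and 19.3 CPM (3.63). Thbs3, a thrombospondin, rose from 5.7, 4.71 and 5.84 CPM to 52.4, 53.3 and 58.3 CPM (3.33). Nid1, Col4a1 and Lamc1, genes of basement membrane proteins, were named after their values were seen. Nid1, which links laminin to collagen IV, fell from 169, 179 and 185 CPM to 46, 49.5 and 69.6 CPM (-1.69). Col4a1, a collagen IV chain, fell from 305, 287 and 306 CPM to 149, 175 and 207 CPM (-0.76), and Lamc1, a laminin chain, from 344, 329 and 341 CPM to 174, 197 and 231 CPM (-0.76). In these 3 genes the PBS libraries spread more than the non-SP libraries and still lay below all of them.

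Genes of the cytoskeleton and of its mechanical regulators were mostly lower. Among 36 genes of the actin cytoskeleton and SRF, 26 fell and 3 rose (median -0.37), and of 29 YAP and TAZ genes with their targets 18 fell and 4 rose (median -0.43). Tead1, the DNA-binding partner of YAP, fell from 202, 202 and 203 CPM to 95.4, 113 and 143 CPM (-0.79), while the target Ccn1 rose by 0.85 on the log2 scale. Fhl1, a LIM protein of actin fibres, rose from 39.7, 37.8 and 41.4 CPM to 172, 165 and 166 CPM (2.08). Keratins and junction genes rose in 25 of 55 and fell in 14 (median 0.25). Sprr1b, a cornified envelope protein, rose from 4.27, 5.25 and 5.04 CPM to 28.6, 27.9 and 24.1 CPM (2.47), and Krt19, a simple epithelial keratin, from 90.8, 99.1 and 96.1 CPM to 212, 209 and 174 CPM (1.06). Sprr1b and Krt19 were expressed in both groups of a line labelled glioma. Among 7 tested markers of epithelial cells 3 rose and 2 fell (median 0.08).

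Genes used to mark stem-like glioma cells were mixed, 8 higher and 5 lower of 15 (median 0.13). Cd9, a tetraspanin, rose from 286, 296 and 289 CPM to 621, 585 and 540 CPM (1 ± 0.05). Ezh2, the Polycomb methyltransferase, fell from 174, 173 and 170 CPM to 114, 120 and 113 CPM (-0.57), and Itga6, a laminin receptor, from 590, 600 and 599 CPM to 402, 408 and 425 CPM (-0.54). Nes, the neural progenitor filament nestin, fell from 3.52, 3.76 and 3.8 CPM to 0.985, 0.883 and 1.85 CPM (-1.58). HOX, SOX, PAX and other lineage factors fell in 23 of 63 and rose in 11 (median -0.01, which changed sign with the scaling).

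The clock list rose in 11 of 18 and fell in 4 (median 0.57). Dbp, an output factor driven by the clock, rose from 4.29, 4.07 and 4.33 CPM to 21.1, 19.4 and 17.3 CPM (2.19 ± 0.1, adjusted p = 1.04e-13). Per2, a repressor of the loop, rose from 4.19, 3.92 and 4.41 CPM to 15.4, 16.5 and 15.6 CPM (1.92), and Nr1d2, a nuclear receptor that represses Arntl, from 69.5, 67 and 70.3 CPM to 134, 126 and 128 CPM (0.91). The fallers, named after their values were seen, were the activator Arntl from 23.7, 23.8 and 23.2 CPM to 20.1, 19.6 and 19.4 CPM (-0.26), Cry1 from 22, 23 and 23.6 CPM to 14.9, 15.6 and 18.6 CPM (-0.48), Per1 (-0.37) and Nfil3 (-0.39). Per1 lost its call without PBS library 1 (adjusted p = 0.0761), and Nfil3 without non-SP 2 (adjusted p = 0.0636) or PBS 2 (adjusted p = 0.0678). The labels give no hour of harvest. Among noncoding RNAs, Neat1, the scaffold of paraspeckles, rose from 5.3, 4.99 and 6.54 CPM to 21.6, 23.2 and 22.5 CPM (2), and Malat1, a nuclear speckle RNA, from 20.5, 18.5 and 18.5 CPM to 42.3, 45.4 and 55.3 CPM (1.31).

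**Figure D5:**
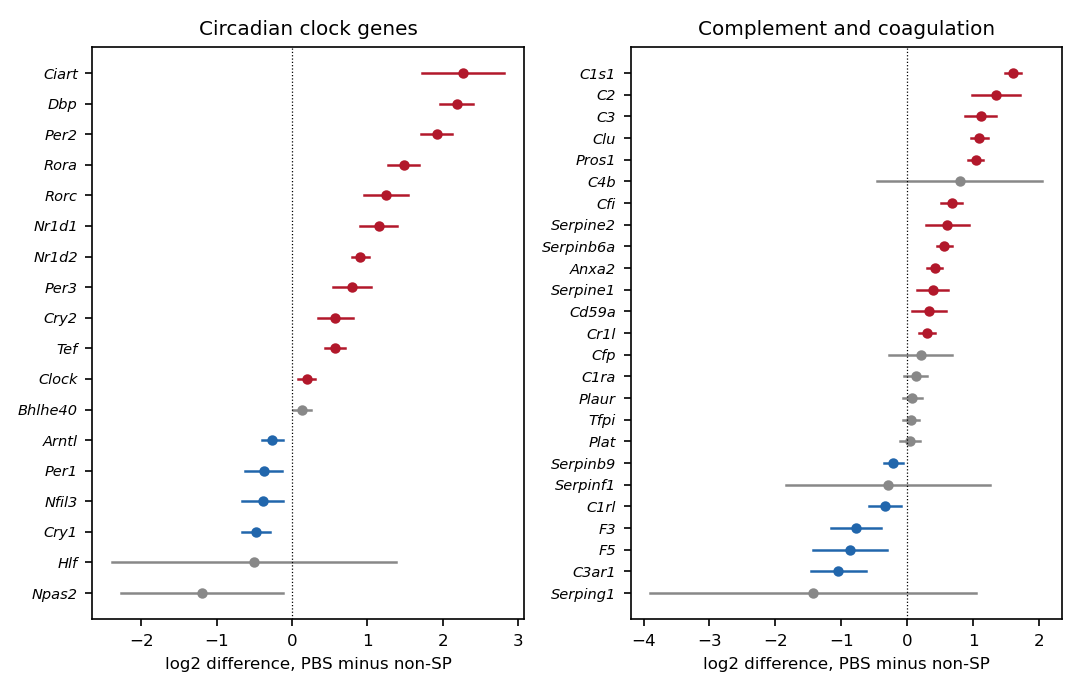
Log2 difference (PBS minus non-SP) with its 95% interval for tested genes of the clock list (left) and of the complement and coagulation list (right, 25 of its 26 tested genes), red where called higher, blue where called lower and grey where not called. Dbp (2.19) and Per2 (1.92) stand high and Arntl (-0.26) below 0 on the left, and C1s1 (1.61) and C3 (1.11) stand above 0 on the right.

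Some genes had no count at all in one group. With none in non-SP, the mucin gene Muc5ac had 243 counts over the 3 PBS libraries, at least 82.6-fold higher against a floor of 3 counts over the group. Cybb, the oxidase subunit of phagocytes, had 126 counts (at least 42.8-fold higher), and the immunoglobulin heavy chain gene Ighm 103 counts (at least 35-fold higher). With none in PBS, Palm3, a membrane-associated protein gene, had 14, 8 and 5 counts in the non-SP libraries, at least 8.83-fold lower in PBS. The lysyl oxidase relative Loxl1 had 2, 8 and 8 counts, at least 5.88-fold lower, and lost its call without non-SP 2, non-SP 3 or PBS 2. Igfbp2, a binding protein of insulin-like growth factors, had 2, 5 and 18 counts, most of them in non-SP 3, and was below the filter. Low counts in each library tended to be even, which was not tested, so these bounds cover counting error only and may be too tight.

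The other Hoechst-CD133+ groups also had cytokines and were taken up in hydrogels. Their names give a gel, D or L, and a load, GSNP or NP. In each comparison with PBS the gel and its load differ together and cannot be told apart. Levels in these groups are set beside the PBS values. These comparisons share the PBS libraries, so no count of overlap is drawn. Over all genes, 45.6% were called between PBS and L-gel@GSNP and 30.4% between PBS and D-gel@NP. Egfr was at 35.4 ± 3.88, 57.4 ± 3.3 and 28.3 ± 1.19 CPM in L-gel@GSNP, D-gel@NP and D-gel@GSNP (SD, n = 3), and PBS was higher than L-gel@GSNP by 1.22 (adjusted p = 3.69e-11) and than D-gel@NP by 0.52 (adjusted p = 2.23e-05). Nupr1 was at 84.8 ± 4.49, 114 ± 6.1 and 4.22 ± 0.609 CPM in the same order, and PBS differed from L-gel@GSNP by -0.97 (adjusted p = 9.01e-10) and from D-gel@NP by -1.4 on the log2 scale (adjusted p = 1.36e-11). Slc7a5 was at 74.6, 96.8 and 126 CPM, all above the PBS libraries. Not every gene set PBS apart: Lmnb1 was at 139, 140 and 443 CPM and C1s1 at 301, 270 and 99.1 CPM in the same order. Neither was called between PBS and L-gel@GSNP or D-gel@NP, and in D-gel@GSNP both lay near the non-SP libraries. The genes given here are examples. The histone gene Hist1h1d was at 11.4, 14.3 and 0.992 CPM, and mt-Co1 at 17545, 17655 and 11206 CPM, below every PBS library.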

How the data were processed

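Whole-number read counts per gene were deposited by the authors, whose processing notes name fastp 0.22.0, HISAT2 2.1.0, the counter featureCounts, DESeq2 and the build GRCm39. The annotation release, strand and multi-mapping settings are not given in the sources used here. With counts and library totals, the deposited FPKM values imply the same gene length in every library for all 34259 genes (tolerance 0.0001). The lengths themselves were not checked against an annotation. Symbols came from GENCODE M21, matched by gene identifier (32434 matched, 1825 not). Among genes with 1 to 20 counts, 62.32% to 66.44% of counts per library were even; the cause was not tested, and if mates were counted separately, intervals from counts are too narrow.

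In R 4.3.3, edgeR 4.0.16 was fitted to all 15 libraries (TMM factors, filterByExpr by group, glmQLFit and glmQLFTest), and the contrast PBS minus non-SP was tested. The biological coefficient of variation was 8.06%. Replicate numbers were not used as a block. The pipeline was tested on simulated data. Motifs were searched in RefSeq promoters of GRCm38.p6, an earlier build than that of the counts, and joined by gene symbol only.

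Members and lists were chosen with earlier results of these data known. The naming rule took the 15 largest rises and falls at 5 CPM or more with groups that did not overlap, the 10 largest changes in CPM, up to 8 genes per direction without counts in 1 group, a preset panel, and per list up to 4 genes by lowest adjusted p and up to 4 by size. The text gives a part of them; promoter examples and genes outside the rule are marked. Alternatives were other scaling factors, filters and fits, DESeq2 1.42.0, limma 3.58.1 on log2(FPKM + 1) and log2(FPKM + 0.1), thinned libraries, and leaving out single libraries. A few genes are not reported here.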

Additional observations from a re-analysis of the deposited data

How the results depend on the processing

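Over all settings run, the numbers of called genes stayed within 1.5 times 4824 higher and 4564 lower. Leaving out 1 library at a time gave 4384 to 4620 higher and 4192 to 4377 lower, with 1522 to 1610 higher and 470 to 611 lower at 2-fold or more, and the difference in mitochondrial share ran from 2.92 to 3.26 percentage points. Upper-quartile factors gave 5343 higher and 4016 lower, and at the lower depth of libraries thinned to 16.6 M counts fewer genes passed, 3749 and 3667. Counts at 2-fold or more depended on the scale: with limma on log2(FPKM + 1) they were 406 higher and 109 lower with a filter and 402 and 104 without, and on log2(FPKM + 0.1) 753 and 274, since a pseudocount shrinks the fold of low genes. A replicate block gave 4822 higher and 4572 lower (1605 and 549 at 2-fold or more). The number of genes tested also changed, to 15173 in thinned libraries and 12528 with filtered FPKM. Counts of list members can have smaller totals there. The deviations of same-numbered PBS and non-SP libraries from their group means correlated at 0.012, 0.006 and -0.004 over all tested genes. These values cannot tell whether such libraries shared a culture date or a preparation.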
